A study of Homo sapiens with 10 samples.

Results

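The genes described here are 37 targets of the transcription factor p53 outside a separate list of p21 (CDKN1A) and apoptotic targets. The 37 still include APAF1, the scaffold of the apoptosome, and AEN, the apoptosis-enhancing nuclease, which was placed in the DNA repair role. They were chosen by name, as genes known to be activated by p53 in human cells, with no threshold on their values, although earlier results of these data were known when the list was made. All 37 stood on 1 row in each deposited table, out of 23609 gene names, and all 37 passed the filter on low values in both tables. They fall into 6 roles, which are feedback on p53 (6 genes), arrest and stress kinases (7), DNA repair and nucleotide supply (6), metabolism, redox and autophagy (10), mitochondria-linked survival and death (4), and adhesion, cytoskeleton and secreted proteins (4).

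The cells were SH-SY5Y, a human neuroblastoma line derived from SK-N-SH, grown in DMEM/F12 with serum. All of the libraries come from this single line. The treated groups were given an siRNA that targets LncND, a long non-coding RNA, at 100 nM (3 libraries) or a mimic of miR-143-3p at 50 nM (2 libraries). Their controls were given a scrambled siRNA (3) or a scrambled miRNA (2), and RNA was taken after 72 h in all groups. The doses of the scrambled RNAs are not given in the labels. The series title describes LncND as a primate RNA that sequesters a miRNA, and the design sets knockdown of LncND and addition of miR-143-3p each against its own scrambled control. LncND itself was not analysed here, so the knockdown has no check in these values.

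Under stress, p53 is released from its inhibitors, binds paired decamer motifs near its target genes and raises their transcription. The products stop the cell cycle, repair DNA, change metabolism and autophagy, and also switch p53 off again, because the ubiquitin ligase MDM2 and the phosphatase PPM1D are p53 targets that act on p53 itself.

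The p53 motif was looked for by its consensus, 2 adjacent decamers without a spacer, in the promoter windows of RefSeq (GRCh38.p14), which run from 250 bases before to 50 bases after a gene start. With up to 3 mismatches outside the central bases that carry the C and the G of each decamer, 7 of the 30 members with a window held a match (23.3%), against 142 of 9206 tested genes (1.54%) and 373 of 27305 genes with a window (1.37%). The consensus is its own reverse complement, so that both strands are read at once. TP53INP1, GADD45A, CMBL, RRM2B, FBXO22, ASCC3 and PHLDA3 had no window. The matches are shown because they lie at the starts of genes that carry the results below, with the 4 central bases of each decamer in capitals. DDB2 had 1 mismatch, AEN and MDM2 had 2, and FDXR, GDF15, RPS27L and SESN1 had 3.
DDB2, chr11:47214969-47214988, plus strand: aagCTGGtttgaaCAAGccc
AEN, chr15:88621306-88621325, plus strand: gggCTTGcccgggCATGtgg
MDM2, chr12:68808923-68808942, plus strand: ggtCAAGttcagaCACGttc
FDXR, chr17:74872996-74873015, minus strand: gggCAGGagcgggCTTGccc
GDF15, chr19:18386186-18386205, plus strand: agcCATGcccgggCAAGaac
RPS27L, chr15:63157527-63157546, minus strand: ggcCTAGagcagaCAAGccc
SESN1, chr6:109009018-109009037, minus strand: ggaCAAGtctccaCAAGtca
A match describes the letters of the window only and shows no binding in these cells.

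The second set of letters concerns the mimic. The labels do not print the sequence of the mimic. RefSeq lists the mature human miR-143-3p at chr5:149428978-149428998, plus strand, and its seed (bases 2 to 8) is in capitals.
hsa-miR-143-3p: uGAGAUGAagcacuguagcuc
Matches to the seed (TCATCTC) or to its first bases with an A after them in the transcript (CATCTCA), or to both joined as TCATCTCA, were counted in the 3′ UTR of 1 transcript per gene (GENCODE v29 on GRCh38), on the strand of the transcript. They were present in 9 of 37 members (24.3%) and in 2288 of 11215 tested genes (20.4%). The joined form was present in 3 members (8.11%) and in 4.21% of tested genes, and the median 3′ UTR lengths were 1107 and 1006 bases. The 9 members were MDM2, FBXO22, RRM2B, POLH, ASCC3, SPATA18, DRAM1, BLOC1S2 and TSKU. The sites of 5 of them are shown as examples with the match in capitals. MDM2 is a reported miR-143 target, FBXO22 and POLH carry the joined form, and DRAM1 and TSKU carry the CATCTCA form. RRM2B also carries the joined form, and its site is not shown.
MDM2 site, base 2709 of the 3′ UTR on chromosome 12: gtttgatcgCATCTCAttgttaact
FBXO22 site, base 6684 of the 3′ UTR on chromosome 15: accagatgaTCATCTCAattgatgca
POLH site, base 700 of the 3′ UTR on chromosome 6: agcgagactTCATCTCAgaaaataaa
DRAM1 site, base 816 of the 3′ UTR on chromosome 12: tgaagctcaCATCTCAaattcattt
TSKU site, base 1124 of the 3′ UTR on chromosome 11: ccagggtagCATCTCAgcttccgaa

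Levels below are FPKM (fragments per kilobase of transcript, relative to the mapped depth of the library), given per library in replicate order or as mean ± SD. Log2 changes are on the log2(FPKM + 1) scale, with SE, and adjusted p-values are from limma over all genes tested. That scale understates the change of genes at low FPKM. Depth, estimated from the steps between low FPKM values, ran from 25.3 to 43.8 M fragments in the siRNA libraries and from 13.9 to 37.8 M in the miRNA libraries. Whether the replicates were cultured separately is not stated in the labels, and the spread behind each p-value may therefore be technical. In LncND siRNA replicate 1 the FPKM summed to 1672220, against 423044 to 472598 in the other 9 libraries. Its largest row, the Y RNA gene RNY4 at 1224670 FPKM, left 447550 for the rest. Its median ratio over all genes (0.03 on the log2 scale) lay near those of the other LncND siRNA libraries (0.02 in each). Without this library the counts of members given below stayed at 32 rises and 2 falls. In bulk RNA, fewer cells of a type and less RNA per cell cannot be told apart.

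The noradrenergic markers of the line were expressed (DBH, PHOX2A, HAND2 and GATA2 at 178 FPKM or more in each group mean), except TH, whose group means were at most 0.325 FPKM. The 10 noradrenergic markers summed to 1400 to 1470 FPKM with LncND siRNA and 1385 to 1423 with scrambled siRNA, and to 1819 and 1821 with the mimic against 2339 and 2346 with scrambled miRNA. The 10 mesenchymal and glial markers, 5 of them tested, summed to 370 to 373 and 340 to 353 FPKM, and to 354 and 357 against 436 and 441, with SOX10 and GFAP near 0. Blood, endothelial and epithelial markers summed to at most 2.09 FPKM. Part of the noradrenergic sum moved with the mimic, and its part in the results below was not tested.

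**Figure D1:**
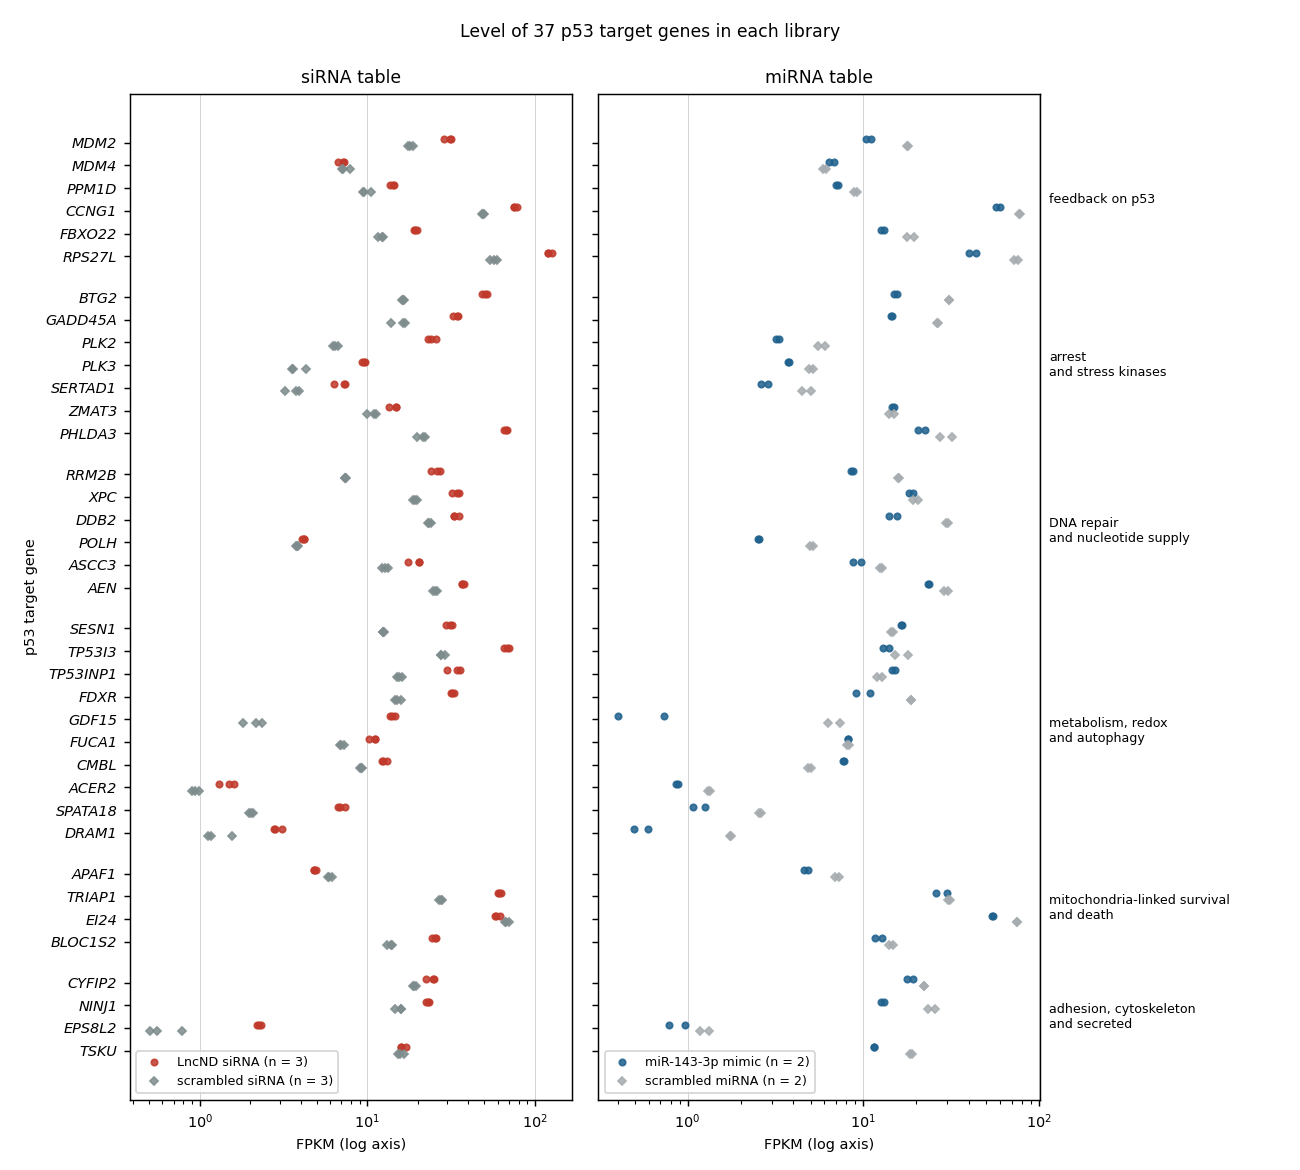
FPKM of each of the 37 genes in each library, on a log axis, with the genes ordered by role. Left, LncND siRNA (red circles, n = 3) and scrambled siRNA (grey diamonds, n = 3). Right, miR-143-3p mimic (blue circles, n = 2) and scrambled miRNA (grey diamonds, n = 2). The LncND siRNA libraries lie to the right of their controls for 33 genes, and the mimic libraries lie to the left of theirs for 31.

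With LncND siRNA, 32 of the 37 p53 targets rose, 2 fell (APAF1 and EI24) and 3 did not pass the test (MDM4, POLH and TSKU). Over all 12601 genes tested, 36.6% rose and 30.3% fell, so that 66.9% were called in one direction or the other. On the log2(FPKM + 1) scale a rise of at least 1.5-fold was seen in 22 members, against 8.28% of all genes tested, and a fall of that size in none, against 4.06%. A rise of at least 2-fold on that scale was seen in 15 members, against 304 of the 12601 genes tested. By the plain ratio of mean FPKM, 25 members rose by at least 1.5-fold and 16 by at least 2-fold. The plain ratio was not counted over all genes. The groups did not overlap in 33 members that were higher and 2 that were lower, against 38.7% and 32.2% of all genes tested. The median log2 change of the members was 0.77 and that of all genes 0.02. In each of the 3 LncND siRNA libraries 34 of 37 members lay above the mean of the controls. The share of all genes above it was not counted per library. The members' median ratio was 0.72, 0.76 and 0.78 on the log2 scale, against 0.03, 0.02 and 0.02 for all genes. Median-ratio scaling gave 4256 higher and 4202 lower among all genes and quantile normalization gave 4026 and 4658, while the members stayed at 32 and 2.

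Of the 6 feedback genes, 5 rose and MDM4 did not pass. MDM2 (chr12:69201970-69239320), the ubiquitin ligase that marks p53 for degradation, was at 28.9, 31.2 and 31.7 FPKM with LncND siRNA and at 18.7, 17.9 and 17.4 with scrambled siRNA (0.73 ± 0.045, adjusted p = 4.39e-07). Its groups did not overlap. MDM4 (chr1:204485506-204527248), the MDM2 relative that masks the activation domain of p53, was at 7.13, 6.7 and 7.23 FPKM with LncND siRNA and at 7.87, 7.2 and 7.09 with scrambled siRNA (-0.06 ± 0.050, adjusted p = 0.28). These groups overlapped, and the adjusted p of MDM4 lay between 0.103 and 0.713 over the settings tried. RPS27L, a ribosomal protein paralogue that binds MDM2, had the largest rise of the role, with a mean of 122 ± 3.92 FPKM against 56.9 ± 2.86 (1.08). PPM1D (0.48), CCNG1, cyclin G1 (0.62), and FBXO22, an F-box subunit of ubiquitin ligases (0.63), rose by less. The span of FBXO22 on the genome overlaps that of FBXO22-AS1, and the strand setting of the quantification is not given in the sources used here. Reads of the 2 genes may be mixed where exons overlap, which was not examined.

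All 7 arrest and stress kinase genes rose, 5 of them at least 2-fold on either scale, with a median log2 change of 1.13. PLK2 (chr5:57749809-57755966), a polo-like kinase, was at 23.1, 25.8 and 24.1 FPKM with LncND siRNA and at 6.46, 6.23 and 6.66 with scrambled siRNA (1.76 ± 0.048, adjusted p = 4.63e-09). PHLDA3 (chr1:201434606-201438299), which restrains AKT at the membrane, was at 68.6, 65.5 and 67.7 FPKM against 21.5, 22.0 and 19.7 (1.63 ± 0.046, adjusted p = 5.14e-09). BTG2 (chr1:203274663-203278729), an antiproliferative partner of the CCR4-NOT deadenylase, was at 48.7, 50.6 and 51.7 FPKM against 16.3, 16.1 and 16.6 (1.57 ± 0.037, adjusted p = 2.43e-09). In these 3 genes the lowest LncND siRNA library stood far above the highest control library.
PLK3 (chr1:45266035-45271667), a second polo-like kinase, was lower in level, at 9.28, 9.76 and 9.61 FPKM with LncND siRNA and at 3.61, 4.32 and 3.56 with scrambled siRNA (1.13 ± 0.061, adjusted p = 2e-07). GADD45A, a growth arrest gene whose product binds PCNA and p21, rose to a mean of 33.9 ± 1.31 FPKM, against 15.7 ± 1.58 (1.07). SERTAD1, a cofactor of E2F transcription (0.78), and ZMAT3, a zinc finger RNA-binding protein (0.40), also rose.

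Of the 6 repair and nucleotide supply genes, 5 rose and POLH did not pass. RRM2B (chr8:103216728-103251346), the p53-inducible small subunit of ribonucleotide reductase, was at 23.9, 27.0 and 26.0 FPKM with LncND siRNA and at 7.48, 7.35 and 7.38 with scrambled siRNA (1.66 ± 0.046, adjusted p = 5.12e-09). It stood apart from the rest of the role, whose largest other change was 0.79. That was XPC, which recognises damage in nucleotide excision repair, at 34.0 ± 1.6 FPKM against 19.2 ± 0.438. ASCC3, a helicase of alkylation repair (0.56), and DDB2, the UV damage sensor (0.50), rose by less. So did AEN (0.54), an apoptosis-enhancing exonuclease that is counted in this role although it is no repair gene by name. POLH, the translesion polymerase eta, was at 4.2, 4.08 and 4.21 FPKM against 3.81, 3.84 and 3.74 (0.11 ± 0.044, adjusted p = 0.053). Its groups did not overlap, and it passed the test without the filter on low values (adjusted p = 0.0191) and without the mean-variance trend (adjusted p = 0.0289). The span of POLH on the genome overlaps that of GTPBP2, and their reads may be mixed where exons overlap, which was not examined.

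All 10 genes of metabolism, redox and autophagy rose, with a median log2 change of 1.05. A rise of at least 2-fold was seen in 6 of them on the log2(FPKM + 1) scale, and in 7, with DRAM1, by the plain ratio of mean FPKM. GDF15 (chr19:18496967-18499986), a secreted stress cytokine of the TGF-beta family, had the largest rise of all 37 members, at 13.6, 14.0 and 14.7 FPKM with LncND siRNA and at 2.36, 2.17 and 1.82 with scrambled siRNA (2.28 ± 0.065, adjusted p = 5.22e-09). It ranked 10 among the rises of all genes tested, and the ratio of its mean FPKM was 6.65. SPATA18 (chr4:52917592-52963458), which serves mitochondrial quality control, was at 6.73, 7.35 and 6.91 FPKM against 2.07, 2.02 and 1.98 (1.40 ± 0.049, adjusted p = 1.67e-08). The next 2 genes had the same log2 change from different levels. SESN1 (chr6:109307639-109415708), a sestrin that restrains mTORC1, was at 29.5, 32.2 and 31.1 FPKM with LncND siRNA and at 12.5, 12.5 and 12.6 with scrambled siRNA (1.24 ± 0.040, adjusted p = 9.64e-09). TP53I3 (chr2:24300302-24308085), a quinone oxidoreductase, was at 65.3, 70.0 and 68.2 FPKM against 27.7, 29.0 and 27.4 (1.24 ± 0.040, adjusted p = 9.4e-09). FDXR, the mitochondrial ferredoxin reductase (1.05), and TP53INP1, a stress protein of autophagy (1.05), also passed 2-fold on both scales. DRAM1, a lysosomal membrane protein of autophagy, had a log2 change of 0.77 and a plain ratio of 2.25. FUCA1, the lysosomal fucosidase (0.56), CMBL, a cytosolic hydrolase (0.42), and ACER2, a Golgi ceramidase (0.35), rose by less. ACER2 had a mean of 0.94 FPKM in the controls, under the 1 FPKM that the filter asked of the table as a whole.

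The 4 genes grouped as mitochondria-linked survival and death divided. The role name is loose for BLOC1S2 and EI24, whose products are described here by the lysosome and the endoplasmic reticulum. TRIAP1 (chr12:120881763-120884215), a survival factor that moves lipids between the mitochondrial membranes, was at 63.0, 60.6 and 60.9 FPKM with LncND siRNA and at 26.7, 27.8 and 27.5 with scrambled siRNA (1.14 ± 0.036, adjusted p = 7.83e-09). BLOC1S2, a subunit of lysosome positioning complexes, rose to 25.1 ± 0.727 FPKM, against 13.7 ± 0.417 (0.82). The other 2 were the members that fell. APAF1 (chr12:99039077-99129211), the scaffold of the apoptosome, was at 4.79, 4.96 and 4.83 FPKM with LncND siRNA and at 5.84, 5.88 and 6.14 with scrambled siRNA (-0.25 ± 0.043, adjusted p = 5.81e-04). EI24 (chr11:125439297-125454575), an endoplasmic reticulum protein of autophagy, was at 61.8, 57.5 and 58.3 FPKM against 66.6, 67.1 and 69.9 (-0.19 ± 0.041, adjusted p = 0.00184). Both falls were under 1.5-fold with no overlap between groups. The span of APAF1 on the genome overlaps that of ANKS1B, and their reads may be mixed where exons overlap, which was not examined.

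Of the 4 adhesion, cytoskeleton and secreted genes, 3 rose. EPS8L2, an actin-binding relative of EPS8, had means of 2.26 ± 0.0628 FPKM with LncND siRNA and 0.614 ± 0.148 with scrambled siRNA (1.02), so that it passed the filter through the treated libraries. NINJ1, which mediates rupture of the plasma membrane in dying cells (0.54), and CYFIP2, a subunit of the WAVE actin regulator (0.32), rose by less. TSKU, a secreted leucine-rich protein, was at 16.3 ± 0.657 and 15.8 ± 0.656 FPKM and did not pass (0.04, adjusted p = 0.408).

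**Figure D2:**
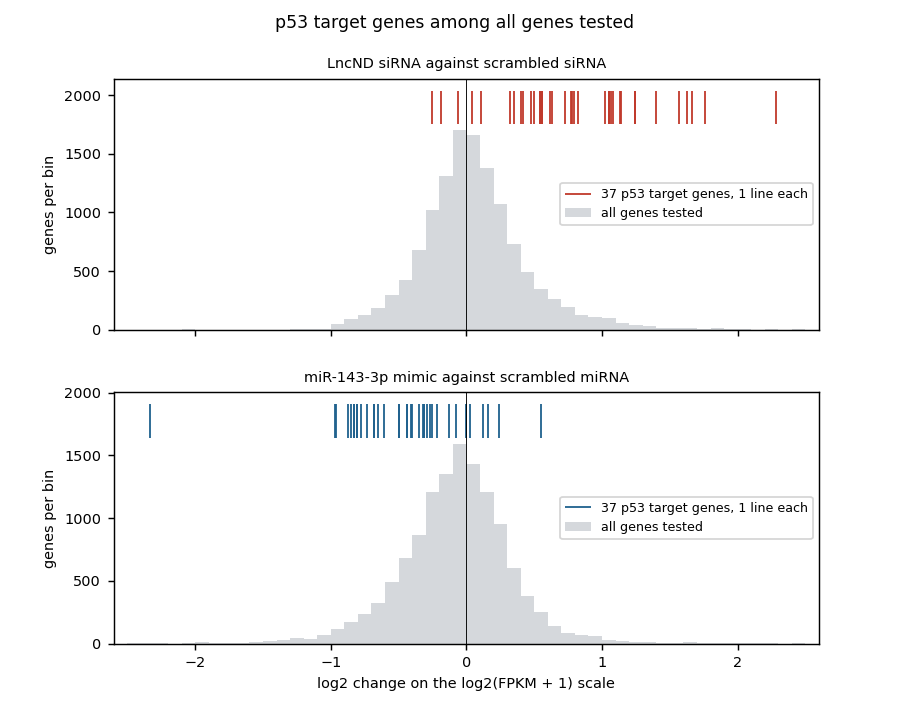
Log2 changes of the 37 genes (coloured lines, 1 per gene) above the histogram of all genes tested (grey bars, genes per bin between -2.6 and 2.6), for LncND siRNA against scrambled siRNA (top) and for miR-143-3p mimic against scrambled miRNA (bottom). The members' median is 0.77 against 0.02 for all genes at the top, and -0.44 against -0.06 at the bottom.

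Among the 100 genes with the largest rises with LncND siRNA were 6 members (GDF15, PLK2, RRM2B, PHLDA3, BTG2 and SPATA18), and among the 300 largest were 15. The p21 and apoptotic targets, which are not members, had 8 rises and 1 fall among 9 tested, with CDKN1A at 303 ± 10.6 against 81.9 ± 2.83 FPKM and PMAIP1 as the fall (-0.35).

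With the miR-143-3p mimic, 29 of the 37 p53 targets fell, 3 rose (SESN1, TP53INP1 and CMBL) and 5 did not pass (MDM4, ZMAT3, XPC, FUCA1 and TRIAP1). Over all 12558 genes tested, 38.6% fell and 24.6% rose, so that 63.3% were called in one direction or the other. On the log2(FPKM + 1) scale a fall of at least 1.5-fold was seen in 15 members, against 9.13% of all genes, and a rise of that size in none, against 3.98%. The groups did not overlap in 31 members that were lower and 4 that were higher, against 48.2% and 33.7% of all genes, with 2 libraries per group. The median log2 change of the members was -0.44 and that of all genes -0.06. Per mimic library the members' median ratio was -0.46 and -0.43 on the log2 scale. Under median-ratio scaling the split of all genes moved to 4049 lower and 3934 higher and under quantile normalization to 3854 and 4145, where the members were at 27 lower and 4 higher in each case. GDF15 was the member that fell by 2-fold or more on the log2(FPKM + 1) scale, against 229 of the 12558 genes tested. By the plain ratio of mean FPKM, 6 members fell to a ratio of 0.5 or less (GDF15, DRAM1, SPATA18, DDB2, BTG2 and POLH). By the same ratio 16 fell by at least 1.5-fold and CMBL rose by 1.56-fold. The plain ratio was not counted over all genes here either.

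In the feedback role 5 genes fell and MDM4 did not pass. MDM2 was at 10.3 and 11.0 FPKM with the mimic and at 17.8 and 17.6 with scrambled miRNA (-0.68 ± 0.054, adjusted p = 5.26e-06). It has been reported as a direct target of miR-143, and its 3′ UTR holds the site printed above. Whether that site has a part in the fall was not tested. RPS27L (chr15:63445538-63449741) was at 39.8 and 43.8 FPKM with the mimic and at 75.8 and 72.1 with scrambled miRNA (-0.81 ± 0.054, adjusted p = 1.57e-06), the largest fall of this role, and no seed match was found in its 3′ UTR. MDM4 was at 6.84 and 6.4 FPKM against 6.11 and 5.9 (0.12 ± 0.064, adjusted p = 0.126), higher in both mimic libraries. It passed under median-ratio scaling (0.18, adjusted p = 0.0341) and quantile normalization (0.19, adjusted p = 0.0232). FBXO22 (-0.50), CCNG1 (-0.40) and PPM1D (-0.31) fell by less than MDM2.

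Of the 7 arrest and stress kinase genes, 6 fell and ZMAT3 did not pass. BTG2 was at 14.9 and 15.6 FPKM with the mimic and at 30.5 and 30.5 with scrambled miRNA (-0.96 ± 0.048, adjusted p = 3e-07). GADD45A (chr1:68150859-68154021) was at 14.3 and 14.5 FPKM against 26.5 and 26.3 (-0.83 ± 0.047, adjusted p = 6.14e-07). In both genes the mimic libraries lay close together and well below the controls. PLK2 (-0.68), SERTAD1 (-0.61), PHLDA3 (-0.44) and PLK3 (-0.35) fell by less, and PHLDA3 did not pass without the filter on low values (adjusted p = 0.105). ZMAT3 was at 14.7 ± 0.204 and 14.4 ± 0.762 FPKM (0.03, adjusted p = 0.624), with overlapping groups.

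In the repair role 5 genes fell and XPC did not pass. DDB2 (chr11:47236492-47260769) was at 15.6 and 13.9 FPKM with the mimic and at 30.3 and 29.4 with scrambled miRNA (-0.97 ± 0.059, adjusted p = 9.09e-07). RRM2B was at 8.46 and 8.71 FPKM against 15.8 and 15.9 (-0.81 ± 0.053, adjusted p = 1.38e-06). POLH (chr6:43543877-43588260) was at 2.55 and 2.52 FPKM against 4.97 and 5.18 (-0.78 ± 0.070, adjusted p = 1.08e-05). In each of these 3 genes both mimic libraries lay well below both controls. ASCC3 (-0.41) and AEN (-0.32) fell by less. XPC was at 18.6 ± 0.589 and 19.7 ± 0.848 FPKM (-0.08, adjusted p = 0.227).

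The metabolic, redox and autophagy genes divided, with 6 falls, 3 rises and FUCA1 at 8.15 FPKM in both groups. GDF15 was at 0.736 and 0.404 FPKM with the mimic and at 7.37 and 6.32 with scrambled miRNA (-2.33 ± 0.11, adjusted p = 2.57e-07). It ranked 4 among the falls of all genes tested, and the ratio of its mean FPKM was 0.0833. FDXR (chr17:72858618-72869156) was at 10.9 and 9.06 FPKM with the mimic and at 18.6 and 18.7 with scrambled miRNA (-0.85 ± 0.075, adjusted p = 9.79e-06). DRAM1 (chr12:102271104-102317401) was at 0.497 and 0.599 FPKM against 1.76 and 1.75 (-0.83 ± 0.092, adjusted p = 3.9e-05). GDF15, DRAM1, ACER2 and EPS8L2 had means under 1 FPKM with the mimic and passed the filter through the controls. SPATA18 (-0.73), ACER2 (-0.31) and TP53I3 (-0.29) also fell.

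The 3 genes that rose with the mimic all belong to this role. CMBL (chr5:10277706-10308168) was at 7.78 and 7.63 FPKM with the mimic and at 4.82 and 5.06 with scrambled miRNA (0.55 ± 0.063, adjusted p = 4.8e-05). TP53INP1 (chr8:95938199-95961615) was at 14.6 and 15.1 FPKM against 12.0 and 12.8 (0.24 ± 0.055, adjusted p = 0.00387). SESN1 was at 16.5 and 16.4 FPKM against 14.4 and 14.8 (0.16 ± 0.050, adjusted p = 0.0161). In all 3 both mimic libraries lay above both controls. The rise of SESN1 did not pass without scrambled miRNA replicate 1 (0.14, adjusted p = 0.111), that of TP53INP1 did not pass without the filter on low values (adjusted p = 0.0636), and the fall of TP53I3 did not pass without scrambled miRNA replicate 1 (-0.17, adjusted p = 0.0753) or without that filter (adjusted p = 0.212).

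In the mitochondria-linked role 3 genes fell and TRIAP1 did not pass. APAF1 (4.73 ± 0.148 FPKM with the mimic and 7.08 ± 0.235 with scrambled miRNA, -0.50) and EI24 (54.3 ± 0.652 and 74.3 ± 0.0264 FPKM, -0.44) fell here as they did with LncND siRNA. BLOC1S2 had a smaller fall (-0.22, adjusted p = 0.0124), which did not pass without mimic replicate 1 (-0.15, adjusted p = 0.0744) or without scrambled miRNA replicate 1 (-0.17, adjusted p = 0.0824), nor without the filter (adjusted p = 0.16) or under median-ratio scaling (adjusted p = 0.0507) or quantile normalization (adjusted p = 0.0635). TRIAP1 was at 26.0 and 29.7 FPKM against 31.0 and 30.1 (-0.13, adjusted p = 0.0866), and it passed without mimic replicate 2 (-0.23, adjusted p = 0.00395).

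All 4 adhesion, cytoskeleton and secreted genes fell with the mimic. NINJ1 (chr9:95883770-95896570) was at 12.6 and 13.1 FPKM with the mimic and at 25.5 and 23.2 with scrambled miRNA (-0.87 ± 0.058, adjusted p = 1.57e-06). TSKU, which did not pass with LncND siRNA, fell to 11.5 ± 0.00813 FPKM, against 18.6 ± 0.278 (-0.65). CYFIP2 (-0.25) and EPS8L2 (-0.27, adjusted p = 0.0378) fell by less, and EPS8L2 did not pass without mimic replicate 2 (-0.19, adjusted p = 0.156), without the filter on low values (adjusted p = 0.138), under median-ratio scaling (adjusted p = 0.0647), under quantile normalization (adjusted p = 0.1) or with the replicate block (adjusted p = 0.0523). CYFIP2 did not pass without the filter on low values (adjusted p = 0.0538).

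All 9 members with a seed match in the 3′ UTR fell with the mimic, and so did 20 of the 28 without a match (71.4%). Over all tested genes the shares that fell were 47.9% with a match and 36.9% without. The call of BLOC1S2, 1 of the 9, was lost under 5 of the settings tried. The median log2 change of the 9 was -0.68, against -0.34 for the 28 members without a match, while over all tested genes the medians were -0.13 with a match (2288 genes) and -0.05 without (8927). On the log2(FPKM + 1) scale the 5 largest falls among the members were those of GDF15, DDB2, BTG2, NINJ1 and FDXR. These 5 are among those without a match in the transcripts searched. By the plain ratio of mean FPKM the order differs. DRAM1 (0.312), SPATA18 (0.451) and POLH (0.499), which have a match, are then among the largest falls, with GDF15, DDB2 and BTG2. DRAM1 and GDF15 had means of 0.548 and 0.57 FPKM with the mimic and passed the filter through the controls, so their ratios are imprecise. The 8 tested p21 and apoptotic targets all fell, CDKN1A to 47.6 ± 2.02 FPKM, against 123 ± 0.623.

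**Figure D3:**
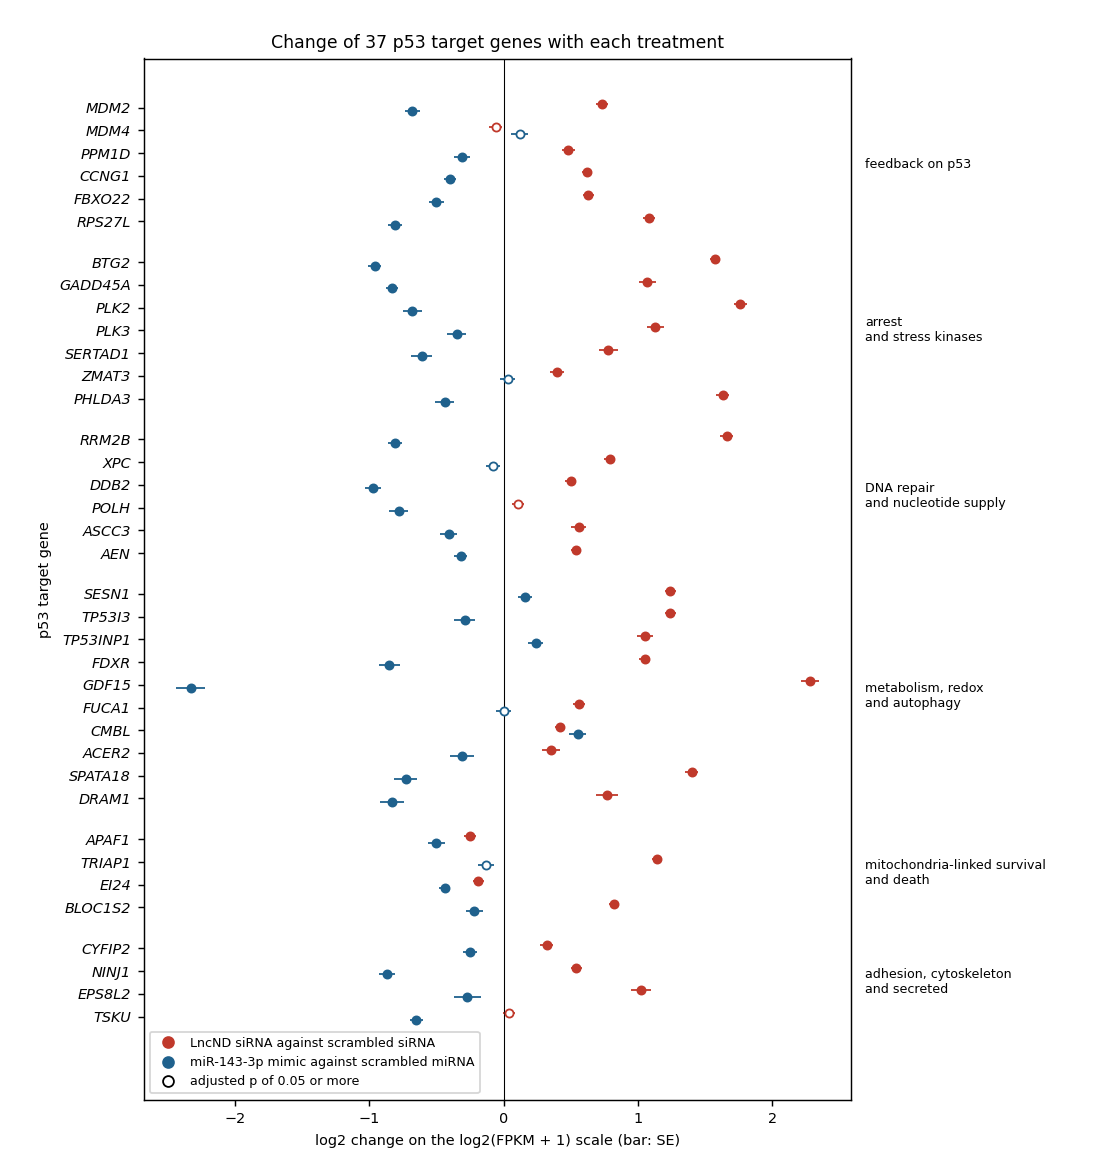
Log2 change of each of the 37 genes, on the log2(FPKM + 1) scale with SE as bars, for LncND siRNA against scrambled siRNA (red, n = 3 per group) and miR-143-3p mimic against scrambled miRNA (blue, n = 2 per group), with the genes ordered by role. Open circles have an adjusted p of 0.05 or more. For 25 genes the red circle is right of 0 and the blue one left of 0, both filled.

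Set side by side, 25 of the 37 members rose with LncND siRNA and fell with the mimic, against 10.6% of the 12327 genes tested in both tables. The reverse pair of calls was found in none of the members and in 4.66% of all genes. SESN1, TP53INP1 and CMBL rose in both comparisons, against 12.6% of all genes, and APAF1 and EI24 fell in both, against 16.4%. ZMAT3, XPC, FUCA1 and TRIAP1 rose with LncND siRNA and did not pass with the mimic, POLH and TSKU fell with the mimic and did not pass with LncND siRNA, and MDM4 passed in neither. The 2 comparisons share no control library. Across the 37 members the log2 changes had a Pearson r of -0.42 and a Spearman rho of -0.24, against 0.22 and 0.25 across all 12327 genes. Points of 1 comparison share their libraries, and these coefficients are descriptions.

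For the difference of the effects, that of LncND siRNA minus that of the mimic, limma was run on the 10 libraries together. It was positive in 35 members, negative in none and did not pass in 2, against 38.1% positive, 22.0% negative and 60.2% called in either direction among all 12327 genes. Among all genes median-ratio scaling gave 3731 positive and 3726 negative differences and quantile normalization 3480 and 4157, while the members were at 34 and 2, and at 33 and 2. The median difference was 1.13 on the log2 scale for the members and 0.08 for all genes, and the called differences ran from 0.25 in APAF1 and EI24 to 4.6 in GDF15 (4.60 ± 0.13, adjusted p = 3.24e-11). BTG2 (2.52 ± 0.057, adjusted p = 6.61e-12), RRM2B (2.48 ± 0.069, adjusted p = 2.39e-11) and PLK2 (2.44 ± 0.080, adjusted p = 8.83e-11) came next. For SESN1 (1.08) and TP53INP1 (0.81), which rose in both comparisons, the rise was larger with LncND siRNA. For APAF1 and EI24, which fell in both, the fall was larger with the mimic. Their differences did not pass under quantile normalization (adjusted p = 0.144 and 0.0584). That of APAF1 did not pass under median-ratio scaling either (0.17, adjusted p = 0.0537). MDM4 (-0.19 ± 0.079, adjusted p = 0.0574) and CMBL (-0.13 ± 0.065, adjusted p = 0.0982) were the 2 members whose difference did not pass. Both passed as negative under median-ratio scaling (-0.27 and -0.22) and quantile normalization (-0.29 and -0.23), CMBL passed with a pseudocount of 0.1 (-0.18), and MDM4 passed without scrambled siRNA replicate 3 (-0.21, adjusted p = 0.0484) and without mimic replicate 2 (-0.23, adjusted p = 0.0464).

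**Figure D4:**
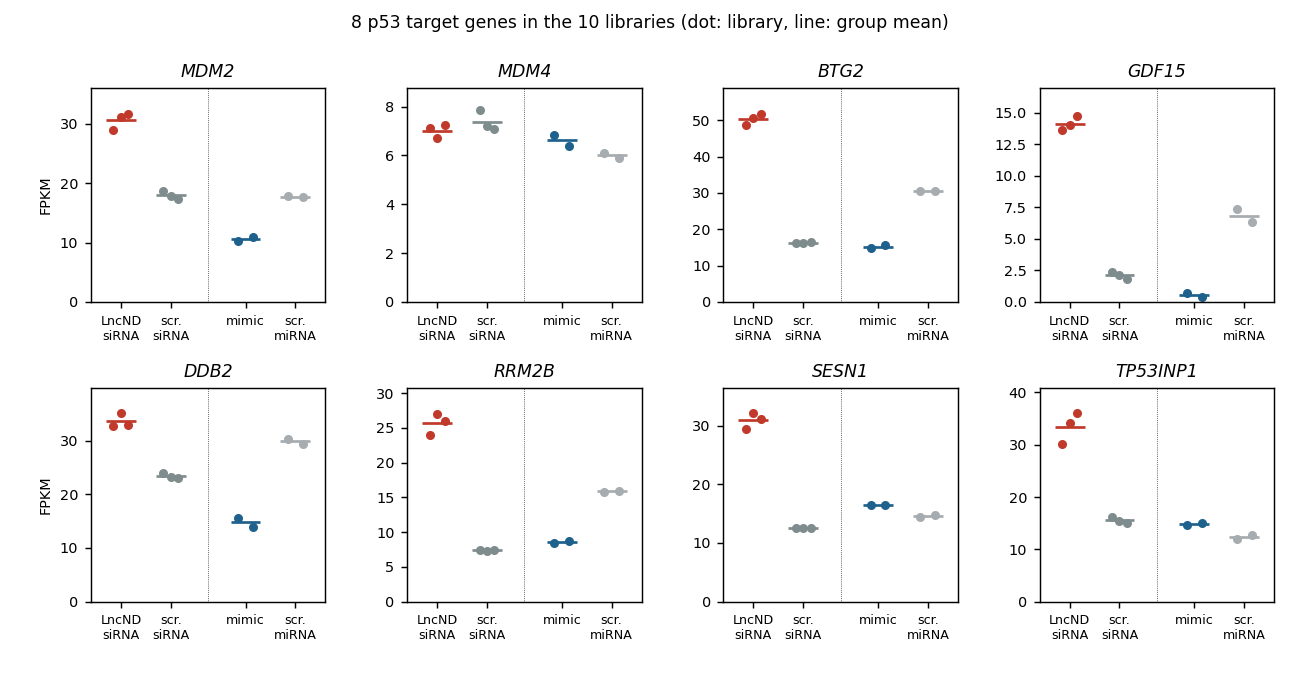
FPKM of 8 of the genes in the 10 libraries, with a dot for each library and a line at each group mean. From left to right in each panel are LncND siRNA and scrambled siRNA (n = 3 each), then the mimic and scrambled miRNA (n = 2 each). The scrambled miRNA libraries lie above the scrambled siRNA libraries in BTG2, GDF15, DDB2, RRM2B and SESN1, and below them in MDM4 and TP53INP1. In MDM2 they overlap.

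The controls of the 2 tables were normalized separately and were not tested against each other, and their levels are given side by side. Both scrambled miRNA libraries lay above all 3 scrambled siRNA libraries for 27 of the 37 members (73.0%) and below them for 6 (16.2%), against 48.5% and 31.6% of the 12327 genes. The median log2 difference, scrambled miRNA minus scrambled siRNA, was 0.24 for the members and 0.07 for all genes. BTG2 had means of 30.5 ± 0.0451 FPKM with scrambled miRNA and 16.3 ± 0.249 with scrambled siRNA, and GDF15 of 6.84 ± 0.742 and 2.12 ± 0.276. The mimic minus scrambled siRNA had a median of -0.15 for the members and -0.01 for all genes. Both mimic libraries lay below all 3 scrambled siRNA libraries for 23 of the 37 members and above them for 6. Over the 12327 genes these counts were 4835 and 4740. BTG2, at 15.2 ± 0.503 FPKM with the mimic, lay just under its level with scrambled siRNA.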

How the data were processed

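Poly(A) RNA of 10 SH-SY5Y libraries was read from 2 tables, 1 per treatment type. The authors deposited FPKM per gene, with status words in some cells and no further score. Per the submitters' processing notes, TopHat (version 1.0.0 as listed) and Cufflinks were used with hg19, while the sources used here do not give the annotation, the strand setting or a filter. FPKM is relative to each library's total, so abundant transcripts lower the others.

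Genes averaging 1 FPKM or more in a table were tested (12601 with siRNA, 12558 with miRNA) as log2(FPKM + 1) with limma 3.58.1 in R 4.3.3 (lmFit, eBayes with trend), each table alone, 2-sided, with Benjamini-Hochberg adjustment over all genes tested and a threshold of 0.05. The difference of effects used 12327 genes. For a name on several rows the row with the highest mean was kept. The procedure was tested on simulated data. Values per library are given for MDM2, MDM4, the 10 called members with the largest changes in a comparison and those called against the majority. Those of POLH with siRNA and of TRIAP1 with the mimic were added after they were seen. The members and lists were chosen with earlier results of these data known. The other genes of the p53 pathway that were read as context, apart from the p21 and apoptotic targets, are not reported here.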

Additional observations from a re-analysis of the deposited data

How the results depend on the processing

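No called result changed direction under any of the settings tried. With LncND siRNA the members stood at 28 to 33 rises and 2 falls, the 28 with a filter of 5 FPKM, which removes members. With the mimic they stood at 2 to 4 rises and 20 to 29 falls, the 20 with that same filter. Without a filter the mimic raised 2000 genes in all, against 3094. The members with a negative difference of effects numbered 1 with a pseudocount of 0.1, 2 with median-ratio scaling, 2 with quantile normalization and 0 to 1 when a library was left out, against 0, and quantile normalization gave 4157 negative differences over all genes, against 2717. The causes were not tested. With siRNA the deviations of libraries with the same replicate number had correlations of 0.068, 0.207 and -0.053, against -0.159 to 0.078 for unlike numbers. With the mimic they were 0.135 and -0.135, which are equal in size by construction with 2 libraries per group. These values do not settle whether replicate numbers pair the libraries. With a replicate block the members stood at 32 rises and 2 falls with siRNA, 3 rises and 28 falls with the mimic, and 35 positive differences. EPS8L2 was the member whose call with the mimic was lost under the block (adjusted p = 0.0523). Over single members and settings, 16 calls with the mimic, none with siRNA and 3 of the difference were lost, and 3, 2 and 7 were gained. Leaving out 1 library leaves a group of 1 in the miRNA table, which is then assumed to vary like the other group. A member under the filter in a setting was not tested there and is not counted as lost. DRAM1 was not tested when either scrambled miRNA library was left out, nor was EPS8L2 without scrambled miRNA replicate 2. The depth is an estimate, so no counting interval is given, and members near 1 FPKM are the least precise.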
